A study of Homo sapiens with 47 samples.

Results

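RBFOX2 and PTBP1 are splicing regulators, and the genes that each of them contacted in cells were set against each other from 10000000 cells each. The study mapped these contacts by uSpyCLIP-seq in Lenti-X 293T, a line derived from embryonic kidney and chosen for making lentivirus. Each line stably expressed the tagged protein, ultraviolet light (UV-C) crosslinked protein to RNA, RNase I trimmed the RNA, and the tag was captured by its covalent bond with SpyCatcher. The comparison takes 4 of the 47 libraries of the series, 2 from RBFOX2-expressing cells and 2 from PTBP1-expressing cells, each from 10000000 cells. PTBP1 lists from 10000 and 100000 cells (2 libraries each) serve as further points of reference. All of these groups share the cell line, the crosslinking and the capture, and none is an untagged or uncrosslinked control.

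The authors deposited 1 list of clusters for each group, a cluster being a short stretch of RNA called as bound. The RBFOX2 list held 117590 clusters and the PTBP1 list from 10000000 cells held 964422. The PTBP1 lists from 10000 and 100000 cells held 248168 and 769524, so the RBFOX2 list is the shortest of the 4. Median cluster width was 6 nt in each of these lists, and the RBFOX2 clusters covered 737 kb against 8082 kb for PTBP1 at 10000000 cells. Shorter PTBP1 lists of the series, from 1000 cells (30911 clusters) and by amount of SpyCatcher (16507 to 28586), were not used for ratios. Statements below about each PTBP1 list cover only the 3 longer ones. The lists carry positions without read counts, so the sequencing depth behind a cluster is unknown, and because a group has a single list, replicates cannot be compared and no p-value is given. Intervals below are exact 95% intervals that cover counting error only, and neighbouring clusters of 1 binding region are not independent.

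Genes were compared by their share, the clusters in a gene as a percentage of all clusters in the list. The ratio of shares is the RBFOX2 share over the PTBP1 share, and because shares add up within a list, a higher share in some genes lowers the shares of others. A gene was compared when the mean of both shares was at least 0.005%, and a ratio of at least 2 or at most 0.5 was counted as a difference. Clusters depend on how much of an RNA the cells hold as well as on binding, and fewer cells with an RNA and less RNA per cell cannot be told apart in bulk samples.

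RBFOX2 belongs to a family of RNA-binding proteins that recognise the element GCAUG, mostly in introns, and that promote or repress the neighbouring exon according to the side on which they bind. PTBP1, the polypyrimidine tract-binding protein, contacts runs of uridine and cytidine such as UCUU and CUCUCU and mostly represses exons, among them many that are used in neurons. Both also act on RNA stability and on the ends of transcripts, and both regulate exons in genes of their own families.

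Base sequence could be read where clusters lay inside windows around annotated gene starts, from 250 nt before to 50 nt after the start. This held for 441 RBFOX2 clusters in 283 windows and for 3190 PTBP1 clusters from 10000000 cells. Of the 441, 270 lay on the strand of the gene whose start defines the window, and the others lay on the opposite strand. The sequence within 20 nt of the cluster's middle, 41 nt in all, was searched on the cluster's own strand. GCATG, the DNA letters of the RBFOX element, was present in 10 of the 441 RBFOX2 stretches (2.27%, 1.09 to 4.13) and in 51 of the 3190 PTBP1 stretches (1.6%, 1.19 to 2.1). Among all 41-nt stretches of the 35116 windows the share was 2.81%, and 19.6% of the windows held GCATG somewhere in their 300 nt, both on the strand of the gene. Shares of all stretches below are on that strand too, where 270 of the 441 RBFOX2 clusters lay, so strands match only in part. Beside that background, the RBFOX2 clusters in these windows did not hold the element that RBFOX2 is known for more often than the windows at large. The windows hold 441 of the 117590 RBFOX2 clusters, and the remainder were not analysed here for sequence.

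RBFOX2 stretches with the element are shown first because they carry the sequence named above, with GCATG in capitals. All sequences are from RefSeq on GRCh38.p14, the assembly of hg38, and are written 5′ to 3′ on the strand of the cluster. CALM3 encodes a calmodulin, SNX27 a sorting nexin of endosomes and TFAP2A a transcription factor of neural crest and epidermis. The FAM27E4 stretch was the 1 of these with no PTBP1 cluster from 10000, 100000 or 10000000 cells within 50 nt, and FAM27 genes have similar copies among which reads may be split.
CALM3, chr19:46609298-46609326, plus strand: tgtcccaagctGCATGattgctctttctc
SNX27, chr1:151613450-151613478, plus strand: gaccgctttgcttttttaggGCATGcccg
TFAP2A, chr6:10412294-10412322, minus strand: tctgcctctttctctttcacttttGCATG
C21orf58, chr21:46320983-46321011, minus strand: ctggaGCATGttatgtatactactagaga
FAM27E4, chr9:61862750-61862778, plus strand: tgtgcttcgcGCATGcgcattggctgggc

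A few RBFOX2 clusters in pyrimidine-rich stretches that overlapped PTBP1 clusters from 10000000 cells are shown for their base composition, with the cluster itself in capitals. TIAL1 encodes a U-binding splicing regulator, RPL37A a protein of the large ribosomal subunit, EIF4B a translation initiation factor and STAG2 a cohesin subunit.
TIAL1, chr10:119595431-119595459, minus strand: ctgcatctTTTTTTTTTTTTTtaagtctg
RPL37A, chr2:216498920-216498948, plus strand: catctgTCCTTGTTTTCTTCTCCcgcacc
EIF4B, chr12:53006456-53006484, plus strand: cttttgcgttcTCTTTCCctctcccaaca
STAG2, chrX:123961113-123961141, plus strand: ccctcctttctccCTTctccccccaagtc

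The letters TCTT, a PTBP1 element, were present in 195 of the 441 RBFOX2 stretches (44.2%, 39.5 to 49.0), in 371 of 862 PTBP1 stretches from 10000 cells (43.0%, 39.7 to 46.4), in 837 of 1754 from 100000 cells (47.7%, 45.4 to 50.1) and in 1157 of 3190 from 10000000 cells (36.3%, 34.6 to 38.0). The RBFOX2 share lay above that of PTBP1 at 10000000 cells, and its interval overlapped those of PTBP1 at 10000 and 100000 cells. All stretches of the windows held TCTT in 13.7%, and 61.7% of the windows held it somewhere. CTCTCT was present in 10.7% of RBFOX2 stretches (7.94 to 13.9), against 8.0%, 7.92% and 6.87% of the PTBP1 stretches in order of rising input and 1.72% of all stretches. A run of uridines (TTTTT) was present in 11.3% of RBFOX2 stretches (8.53 to 14.7), against 12.1%, 12.4% and 10.4% of the PTBP1 stretches and 4.24% of all stretches.

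At the middle of the cluster the base was uridine in 51.5% of RBFOX2 clusters (46.7 to 56.2) and in 48.9% of PTBP1 clusters from 10000000 cells (47.2 to 50.7). At 20 nt upstream of the middle the share was 27.9% for RBFOX2 and 25.8% for PTBP1. Uridine or cytidine stood at the middle in 76.6% of RBFOX2 clusters (72.4 to 80.5) and in 74.6% of PTBP1 clusters (73.1 to 76.1). A pyrimidine peak at the middle of the cluster was thus measured in both lists, with intervals that overlap, and its source was not tested. In these windows the sequences did not set the list labelled RBFOX2 apart by the element of RBFOX2. Whether that list holds RNA bound by RBFOX2 was not tested, and every RBFOX2 share and ratio below rests on its label.

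**Figure D1:**
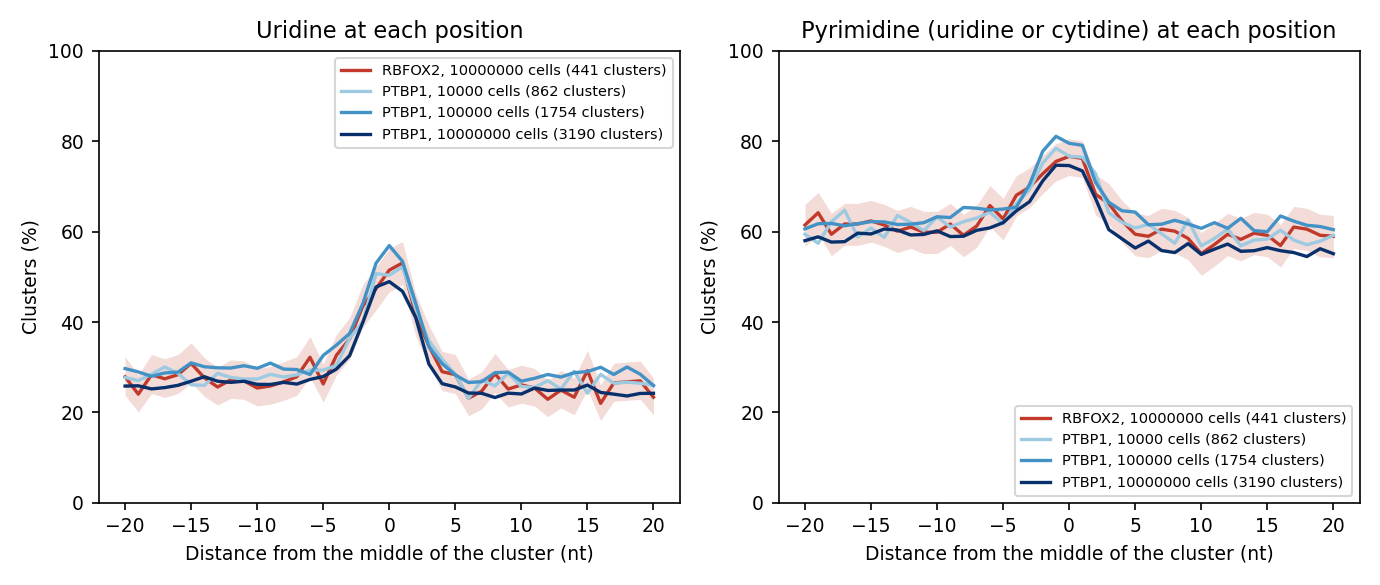
Percentage of clusters with uridine (left) or any pyrimidine (right) at each distance from the middle of the cluster, for clusters in windows around gene starts; lines are the RBFOX2 list and the 3 PTBP1 lists, and the red band is the exact 95% counting interval of RBFOX2. Uridine peaks at the middle, at 51.5% for RBFOX2 and 48.9% for PTBP1 from 10000000 cells.

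Of the 441 RBFOX2 clusters in the windows, 351 overlapped a PTBP1 cluster from 10000000 cells on the same strand. Just 49 had no PTBP1 cluster from 10000, 100000 or 10000000 cells within 50 nt. In these 49, GCATG was present in 1 (2.04%, 0.0517 to 10.9) and TCTT in 7 (14.3%, 5.94 to 27.2), close to the 13.7% of all stretches.

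Hairpins of microRNA precursors were a second set of RNAs with a known sequence. RBFOX2 clusters lay in 8 of 1562 hairpins, and PTBP1 clusters from 10000, 100000 and 10000000 cells lay in 15, 40 and 64. None of the 8 hairpins holds GCAUG. Shown are MIR2110, which had 1 RBFOX2 cluster and none in these 3 PTBP1 lists, and MIR3916 and MIR4766, where an RBFOX2 cluster covered a run of uridine. The other RBFOX2 cluster of MIR3916 reached only its last base. Not shown are MIR1914, with the same counts as MIR2110, and MIR4517, which held the most RBFOX2 clusters (3). Capitals mark the bases under an RBFOX2 cluster.
MIR2110, chr10:114174105-114174179, minus strand: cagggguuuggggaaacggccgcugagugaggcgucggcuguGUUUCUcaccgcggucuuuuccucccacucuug
MIR3916, chr1:247201967-247202060, minus strand: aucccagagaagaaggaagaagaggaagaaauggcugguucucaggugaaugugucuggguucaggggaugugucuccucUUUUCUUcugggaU
MIR4766, chr22:40813883-40813958, minus strand: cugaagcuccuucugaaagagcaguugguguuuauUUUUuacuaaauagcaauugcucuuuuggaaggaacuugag

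RBFOX2 clusters lay in 8465 genes and PTBP1 clusters from 10000000 cells in 14282. Of 4752 genes compared, 999 (21%) had a share of RBFOX2 clusters at least 2-fold higher and 1295 (27.3%) at least 2-fold lower, and the median ratio was 0.965. The PTBP1 list from 10000 cells was the shortest of the 3 used. Against it, 365 of 4111 genes (8.88%) were at least 2-fold higher and 513 (12.5%) at least 2-fold lower. Against the list from 100000 cells these shares were 21.5% and 24.7% of 4535 genes. Against each of the 3 PTBP1 lists at once, 154 of the 4752 genes (3.24%) were at least 2-fold higher and 541 (11.4%) at least 2-fold lower.

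The length of the PTBP1 list moved with these results. Of the 999 genes with the higher share, 172 were also at least 2-fold higher against the 10000-cell list, and 157 had a ratio below 1 there. Of the 1295 genes with the lower share, 577 were also at least 2-fold lower against the 10000-cell list, and 296 had a ratio above 1. Among the 541 lower against each list, 40 had 3 or fewer clusters in both the RBFOX2 and the 10000-cell list, too few for a comparison. Whether list length or depth accounts for the differences was not tested. Genes next to the threshold were ETAA1 (10 RBFOX2 and 41 PTBP1 clusters, ratio 2.0004) and NCOA5 (29 and 119, 1.999) at the upper limit, and SND1 (37 and 607, 0.4999) and AZI2 (5 and 82, 0.5001) at the lower.

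**Figure D2:**
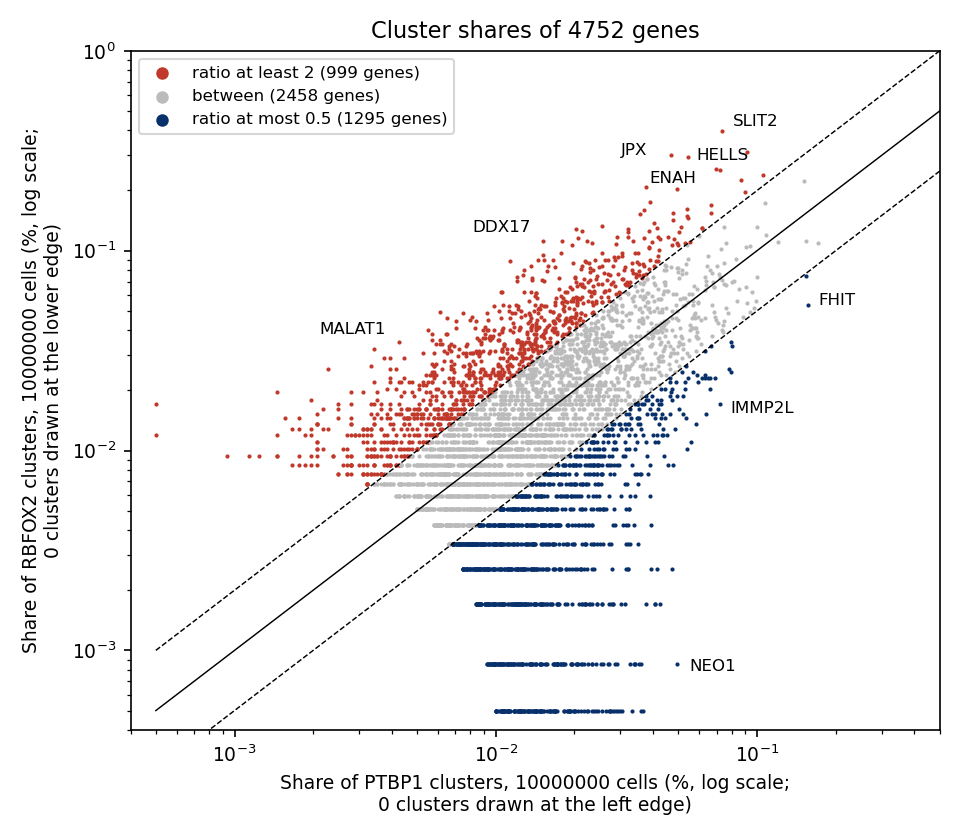
Share of RBFOX2 clusters (vertical axis, %) against share of PTBP1 clusters (horizontal axis, %) from 10000000 cells, both on log scales; each point is 1 of 4752 genes, the solid line marks equal shares and the dashed lines 2-fold. Red points are the 999 genes at least 2-fold higher and dark blue points the 1295 at least 2-fold lower; SLIT2 lies highest and NEO1 far below the line.

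The largest differences of shares in favour of RBFOX2 were in SLIT2, JPX, HELLS, ANKRD17, FTX, ENAH, AMOT, ZZZ3, EIF4G3 and CELF1. SLIT2 (chr4:20251905-20620561), a secreted axon guidance ligand, held 469 RBFOX2 clusters and 474, 1128 and 710 PTBP1 clusters from 10000, 100000 and 10000000 cells. Its share was 0.399% of RBFOX2 and 0.0736% of PTBP1 clusters from 10000000 cells, a ratio of 5.42 (4.81 to 6.10), and the ratio was 2.09 against the 10000-cell list. JPX (chrX:73944324-74070384), a long noncoding RNA of the X-inactivation centre, held 355 RBFOX2 clusters and 351, 530 and 452 PTBP1 clusters, a ratio of 6.44 (5.59 to 7.42) at 10000000 cells and 2.14 at 10000. Both genes stayed at least 2-fold higher against each of the 3 PTBP1 lists.

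HELLS (chr10:94545788-94613905), a chromatin remodeller needed for DNA methylation, held 344 RBFOX2 clusters and 409, 431 and 526 PTBP1 clusters in order of input, with ratios of 1.78, 5.22 and 5.36. ANKRD17, an ankyrin repeat protein, held 368 RBFOX2 clusters and 585, 818 and 885 PTBP1 clusters, with ratios of 1.33, 2.94 and 3.41. The ratio of each gene was lowest against the 10000-cell list, where neither reached 2-fold. FTX, another noncoding RNA of the X-inactivation centre that runs opposite to JPX, held 301 RBFOX2 clusters and 703, 826 and 674 PTBP1 clusters, with ratios of 0.904, 2.38 and 3.66. FTX thus lay below an equal share against the 10000-cell list and above it against those from 100000 and 10000000 cells.

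ENAH (chr1:225486829-225653878), an actin regulator of the Ena/VASP family with exons known to be regulated by RBFOX2, held 297 RBFOX2 clusters and 307, 645 and 695 PTBP1 clusters. Its ratios were 2.04, 3.01 and 3.50 (3.05 to 4.02) in order of PTBP1 input, past 2-fold against each of these 3 lists. The PTBP1 list from 1000 cells, left out of the ratios, held 95 of its 30911 clusters in ENAH. Beside 297 of 117590 in the RBFOX2 list, the RBFOX2 share of ENAH was not the higher there. The angiomotin gene AMOT held 244 RBFOX2 and 361 PTBP1 clusters at 10000000 cells (ratio 5.54), and CELF1, a splicing and mRNA decay regulator, held 207 and 376 (4.52). Their ratios against the 10000-cell list were 1.87 and 1.81. EIF4G3, a translation initiation factor gene, held 265 RBFOX2 clusters and 684, 867 and 838 PTBP1 clusters, and its ratio was 0.818 at 10000 cells and 2.59 at 10000000.

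Differences in the other direction were led by long genes. FHIT (chr3:59747277-61251452), a diadenosine triphosphate hydrolase gene over a common fragile site, held 63 RBFOX2 clusters and 175, 1226 and 1507 PTBP1 clusters, with ratios of 0.760, 0.336 and 0.343 (0.262 to 0.441). DIAPH3, a formin, held 88 RBFOX2 and 1489 PTBP1 clusters at 10000000 cells (ratio 0.485), and TTC28 held 128 and 1652 (0.635). NEO1 (chr15:73051692-73305206), the netrin receptor neogenin, held 1 RBFOX2 cluster and 32, 242 and 476 PTBP1 clusters, a ratio of 0.0172 (0.000435 to 0.0965) at 10000000 cells. IMMP2L, GPHN and NEO1 were at least 2-fold lower against each of the 3 PTBP1 lists, with GPHN, the gephyrin gene of inhibitory synapses, at 0.469, 0.258 and 0.328. FHIT, DIAPH2, RNGTT, EXOC4 and DIAPH3 had ratios between 0.704 and 0.826 against the 10000-cell list. FOCAD, a focal adhesion protein gene, held 39 RBFOX2 clusters and 20, 534 and 774 PTBP1 clusters, and its ratio of 4.12 at 10000 cells ran against those of 0.478 and 0.413 at the higher inputs.

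**Figure D3:**
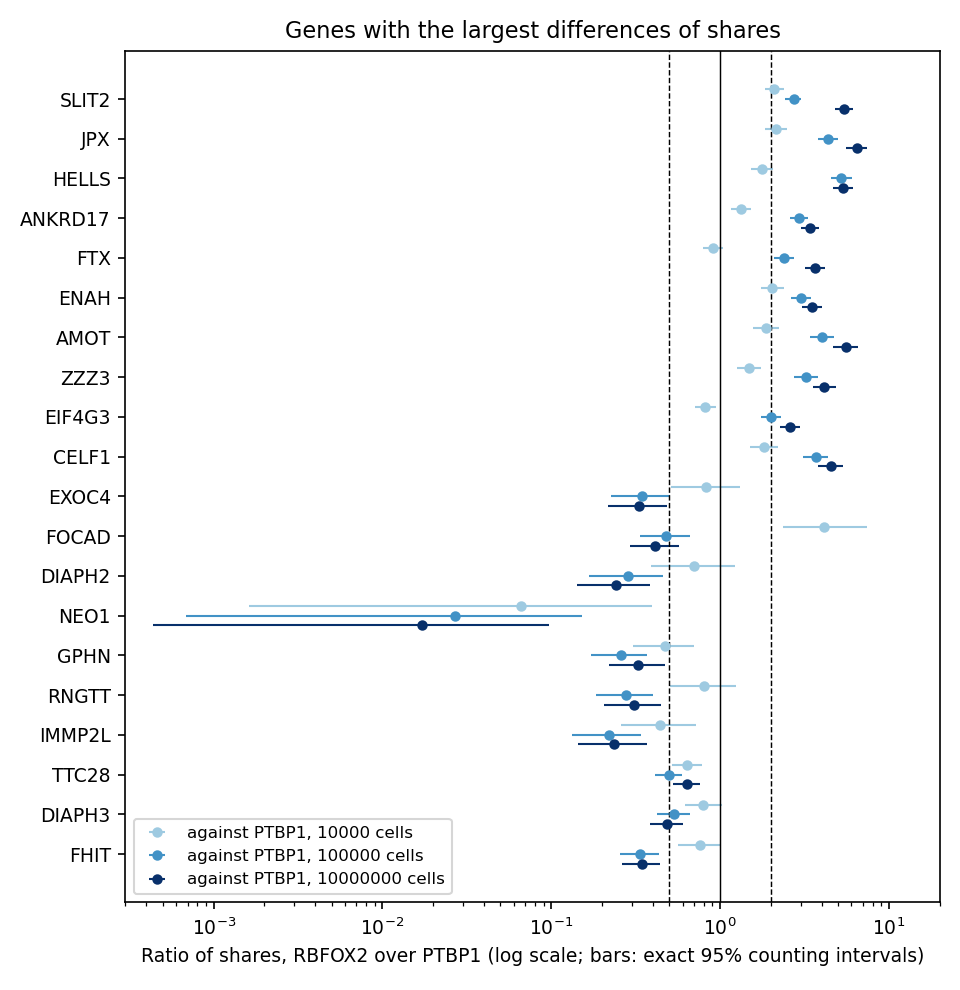
Ratio of shares, RBFOX2 over PTBP1 (log scale), for the 10 genes with the largest difference of shares in each direction; points are the ratios against the PTBP1 lists from 10000, 100000 and 10000000 cells and bars are exact 95% counting intervals. The upper 10 genes lie at 2.59 to 6.44 against 10000000 cells and nearer to 1 against 10000 cells, and FOCAD changes sides.

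Among protein-coding genes the largest ratios were found in genes with few clusters. ZNF579, a zinc finger gene, held 23 RBFOX2 and 14 PTBP1 clusters (ratio 13.5, 6.65 to 28.3), and POU4F1, a transcription factor of sensory neurons, held 30 and 22 (11.2, 6.24 to 20.4). PCNA, the sliding clamp of DNA replication, held 14 in each list, a ratio of 8.2. IFFO1, an intermediate filament family gene, held 58 RBFOX2 clusters and 42, 57 and 59 PTBP1 clusters, with ratios of 2.91, 6.66 and 8.06. IRS4, an insulin receptor substrate known from 293 cells, held 104 RBFOX2 and 109 PTBP1 clusters (7.83), and 134 at 10000 cells (1.64). Equal or nearly equal numbers of clusters in lists of unequal length give such ratios, and POU4F1, ZNF579 and IFFO1 were past 2-fold against each of the 3 PTBP1 lists.

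ZNF703 and NEAT1 were the 2 compared genes with no PTBP1 cluster at 10000000 cells. ZNF703, a zinc finger gene of chromosome 8, held 20 RBFOX2 clusters and 0, 24 and 0 PTBP1 clusters, a share at least 54.7-fold higher than the floor of 3 clusters in the PTBP1 list of 10000000 cells. NEAT1 (chr11:65422798-65445540), the RNA scaffold of paraspeckles, held 14 RBFOX2 clusters and 1, 0 and 0 PTBP1 clusters, at least 38.3-fold higher by the same floor. The neighbouring MALAT1, a nuclear speckle RNA, held 41 RBFOX2 clusters and 50, 45 and 41 PTBP1 clusters, a ratio of 8.2 (5.19 to 13) at 10000000 cells and 1.73 at 10000. A cluster count of 0 in a list says that none was listed, and the strand of ZNF703 and NEAT1 was not known from the tables used.

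No RBFOX2 cluster was listed in 132 of the 4752 genes. The largest PTBP1 counts among them belonged to AIG1, a lipid hydrolase gene, with 6, 338 and 352 PTBP1 clusters, and CDC14A, a phosphatase gene, with 1, 109 and 347. Their RBFOX2 shares were at least 14.3-fold and 14.1-fold lower than the PTBP1 shares at 10000000 cells. LCLAT1, BLTP1 and RIC1 had 41, 42 and 59 clusters even in the 10000-cell list and none in the RBFOX2 list. CTCF, the insulator protein gene, had 0 RBFOX2 clusters and 31, 95 and 104 PTBP1 clusters.

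The genes of the tagged proteins and their paralogs were read next. RBFOX2 held 61 clusters in the RBFOX2 list and 169, 492 and 400 in the PTBP1 lists, with ratios of 0.762, 0.811 and 1.25 (0.939 to 1.64). RBFOX1 and RBFOX3, the paralogs best known from neurons and muscle, had no cluster in either list from 10000000 cells. PTBP1 held 22 RBFOX2 clusters and 25, 52 and 79 PTBP1 clusters (1.86, 2.77 and 2.28). PTBP2, the neuronal paralog with an exon that PTBP1 represses, held 135 RBFOX2 clusters and 202, 394 and 411 PTBP1 clusters. Its ratios were 1.41, 2.24 and 2.69 (2.2 to 3.28). The PTBP1 list from 1000 cells held 66 of its 30911 clusters in PTBP2. Beside 135 of 117590 in the RBFOX2 list, the RBFOX2 share of PTBP2 was not the higher there. PTBP3 held 16 RBFOX2 and 210 PTBP1 clusters at 10000000 cells (0.625, 0.351 to 1.04), and its ratio was 0.450 at 10000. Whether clusters in RBFOX2 or PTBP1 came from the tagged copy or the cell's own gene was not tested.

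Gene lists are described below by all their clusters and by the members that entered the comparison, beside the background of 21% higher, 27.3% lower and a median ratio of 0.965. Of 24 genes with exons linked to RBFOX2, 18 entered, 6 were at least 2-fold higher and 3 at least 2-fold lower, with a median of 1.40 (1.23 against 10000 cells, with 3 of 15 higher and 0 lower). Together the 24 held 1210 RBFOX2 and 5136 PTBP1 clusters, a ratio of 1.93. The 6 were ENAH, EIF4G3, the dynamin gene DNM2 (67 and 202 clusters, 2.72), the kinase gene MAP3K7 (85 and 297, 2.35), the protein 4.1 family gene EPB41L2 (129 and 475, 2.23) and the RhoA exchange factor gene ECT2 (33 and 133, 2.03). EPB41L1 (3 and 106, 0.232, 0.0471 to 0.697), FMNL3 and ANK3 were the 3 with the lower share. Of 26 genes with exons linked to PTBP1, 19 entered, 4 were at least 2-fold higher and 1 lower, with a median of 1.34 (1.37 against 10000 cells, with 6 of 18 higher and 1 lower), and the 26 held 651 RBFOX2 and 3905 PTBP1 clusters, a ratio of 1.37. PKM, which encodes pyruvate kinase M and has mutually exclusive exons, was at 3.38 (73 and 177), the postsynaptic scaffold gene DLG4 at 5.95 (45 and 62), and NF1, a RAS regulator gene, at 0.498 (39 and 642). Against 10000 cells PKM was at 1.20, DLG4 at 2.065 and NF1 at 1.31, so NF1 changed sides.

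Many genes for splicing regulators had a share at least 2-fold higher in the RBFOX2 list than in the PTBP1 list from 10000000 cells. Few reached 2-fold against 10000 cells. Of 20 SR and SR-like genes 12 entered, 10 were at least 2-fold higher and 0 lower, and the median was 2.98. ACIN1 held 132 RBFOX2 clusters and 135, 151 and 173 PTBP1 clusters, a ratio of 6.26 at 10000000 cells and 2.06 at 10000, and SON, a nuclear speckle scaffold gene, was at 3.79 and 2.39. SRSF1 (49 and 137, 2.93), SRSF11 (77 and 209, 3.02) and TRA2B (40 and 104, 3.15) lay at 0.844 to 1.22 against the 10000-cell list. SRSF10 was at 0.444 and SRSF4 at 1.78 against that list. Over the whole list the median against 10000 cells was 1.05, with 2 of 12 higher and 1 lower, beside 0.951 for all genes compared there.

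Of 24 hnRNP genes 14 entered, and 8 were at least 2-fold higher and 0 lower (median 2.07). Against 10000 cells the hnRNP median was 0.820, below that of all genes, with 1 of 14 higher and 0 lower. HNRNPA2B1 (53 and 90, 4.83) and HNRNPK (39 and 67, 4.77) led the list, and HNRNPUL1 was at 0.724. Among 30 other splicing regulators 17 entered, with 8 higher and 4 lower (median 1.92, and 1.07 against 10000 cells, with 1 of 15 higher and 3 lower). TIAL1 held 84 RBFOX2 clusters and 123, 152 and 133 PTBP1 clusters, a ratio of 5.18 (3.89 to 6.86) at 10000000 cells and 1.44 at 10000. TIA1 was at 3.40, RBM5 at 4.54 and the branch point binding factor SF1 at 4.03. The 4 lower members were QKI (6 RBFOX2 clusters and 87, 283 and 311 PTBP1 clusters, 0.158), MBNL2 (3 and 142, 0.173, 0.0353 to 0.517), ELAVL1 (3 and 134, 0.184, 0.0374 to 0.548) and NOVA2 (2 and 88, 0.186, 0.0222 to 0.694). QKI and ELAVL1 were below 0.5 against each of the 3 PTBP1 lists.

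Of 9 splicing kinase genes 5 entered, with 2 higher and 0 lower (median 1.96), and against 10000 cells 0 of 6 were higher or lower (median 1.04). SRPK1, an SR protein kinase, held 167 RBFOX2 clusters and 374, 459 and 460 PTBP1 clusters, with ratios of 0.942, 2.38 and 2.98. Of 29 helicase and decay genes 23 entered, with 8 higher and 3 lower (median 1.64). Against 10000 cells the median of these genes was 0.933, below that of all genes, with 1 of 23 higher and 4 lower. The helicase gene DDX17 held 132 RBFOX2 clusters and 168, 139 and 146 PTBP1 clusters, at 7.42 (5.82 to 9.45) against 10000000 cells and 1.66 against 10000. UPF2, a nonsense-mediated decay factor gene, held 2 RBFOX2 clusters and 40, 185 and 270 PTBP1 clusters, at 0.0608 (0.00732 to 0.222). XRN1, the cytoplasmic 5′ exonuclease, was at 0.410 (17 and 340). Of 28 translation factor genes 13 entered, with 6 higher and 1 lower (median 1.76), and of 75 ribosomal protein genes 8 entered, with 7 higher and 0 lower (median 2.32). RPL26 was at 5.55 (23 and 34) and EIF4B at 3.51 (36 and 84). Among members that entered against 10000 cells, neither list had one at least 2-fold higher. The translation factor gene EIF4E3, at 0.298 against 10000000 cells, was at 2.81 against 10000 cells but did not enter there. There the translation factors had a median of 0.818 with 2 of 13 lower, and the ribosomal protein genes one of 1.17 with 1 of 10 lower.

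Genes of the cytoskeleton and of cell adhesion divided. Of 32 actin and adhesion regulators 24 entered, with 3 higher and 10 lower (median 0.743, below that of all genes). Against 10000 cells the median was 1.13, above that of all genes, with 3 of 21 higher and 2 lower. ENAH, CTNNB1 (beta-catenin, 94 and 227, 3.40) and CAPZA1 (an actin capping subunit, 97 and 239, 3.33) were higher, and the formins DIAPH2, FMN2, FMNL2, FMNL3 and DIAPH3 lay between 0.241 and 0.485 and the formin DIAPH1 at 1.57. Against 10000 cells those 5 formins lay between 0.649 and 1.13. MYO6, an unconventional myosin gene, held 1 RBFOX2 cluster and 29, 143 and 151 PTBP1 clusters. Of 29 axon guidance genes 10 entered, with 1 higher, SLIT2, and 3 lower, among them its receptor gene ROBO2 (8 and 306, 0.214). ROBO1, another SLIT receptor, held 262 RBFOX2 clusters and 571, 1530 and 1459 PTBP1 clusters, at 0.968, 1.12 and 1.47. Of 28 synaptic adhesion genes 7 entered, with 0 higher and 3 lower (median 0.668). Against 10000 cells the synaptic median was 1.03, above that of all genes, with 0 of 5 higher and 1 lower. Of 20 kinesins 13 entered, with 0 higher and 5 lower (median 0.749, and 0.839 against 10000 cells, with 1 of 10 lower). KIF16B held 1 RBFOX2 cluster and 22, 236 and 330 PTBP1 clusters.

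Very long genes over common fragile sites had the lowest median. Of 20 such genes 15 entered, with 0 higher and 9 lower, and the median was 0.443, against 0.734 for the 10000-cell list, where 1 of 12 was lower. The 20 genes held 604 RBFOX2 and 9757 PTBP1 clusters, a ratio of 0.508. WWOX, an oxidoreductase gene, held 27 RBFOX2 clusters and 99, 701 and 595 PTBP1 clusters, at 0.576, 0.252 and 0.372. LRBA, a vesicle trafficking gene, was at 0.834, 0.619 and 0.730.

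Lists for chromatin, chromosome structure, nuclear transport, ubiquitin ligases and DNA repair had medians between 0.946 and 1.36. Of 28 chromatin genes 24 entered, with 7 higher and 6 lower (median 1.03). HELLS was at 5.36 and CHD4 at 2.50, and against 10000 cells they were at 1.775 and 1.26. CHD7, the CHARGE syndrome remodeller gene, held 1 RBFOX2 cluster and 9, 191 and 330 PTBP1 clusters, at 0.0249 (0.000627 to 0.139). Cohesin and related genes (16 of 18 entered, 1 higher, 3 lower) had a median of 1.19, nuclear transport genes (24 of 27, 2 higher, 4 lower) 1.36, ubiquitin ligases (23 of 30, 4 higher, 2 lower) 0.957 and DNA repair genes (20 of 25, 3 higher, 2 lower) 0.946. Against 10000 cells these 5 medians lay between 0.769 and 0.973, and the nuclear transport list, at 0.769 with 1 of 23 higher and 4 lower, was below all genes there and above them at 10000000 cells. HUWE1, a large ubiquitin ligase gene, was at 2.55 (199 and 641) and PRKDC, the DNA-dependent protein kinase gene, at 2.56 (137 and 439). Against 10000 cells HUWE1 was at 1.795 and PRKDC at 0.977. XPO7 and NUP93, an exportin and a nuclear pore gene, each held 1 RBFOX2 cluster, against 130 and 166 PTBP1 clusters.

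By class of gene the lists differed little for long RNAs. Protein-coding genes held 93.6% of RBFOX2 and 93.5% of PTBP1 clusters at 10000000 cells (ratio 1.00), and long noncoding genes held 3.55% and 3.45% (1.03, 0.997 to 1.06). Small RNA genes held 0.208% of RBFOX2 clusters, 244 in all, against 0.0777% of PTBP1 clusters, a ratio of 2.67 (2.30 to 3.09). Against the 10000-cell list, where the share was 0.154%, the ratio was 1.34 (1.14 to 1.58). Outside genes lay 1.90% of RBFOX2 and 2.36% of PTBP1 clusters.

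Among small RNA genes, those for snRNA, tRNA, snoRNA and the class ncRNA had higher RBFOX2 shares against 10000000 cells, and the intervals of microRNA and misc_RNA genes included 1. Genes for Y_RNA, rRNA, scRNA and telomerase RNA, with 4 or 5 RBFOX2 clusters per class, had intervals above 1 there and including 1 against 10000 cells. Spliceosomal and related snRNA genes held 37 RBFOX2 clusters and 44, 33 and 49 PTBP1 clusters (6.19 at 10000000 cells, 3.93 to 9.69), tRNA genes 57 and 86, 113 and 135 (3.46), and snoRNA genes 70 and 133, 205 and 270 (2.13). MicroRNA genes held 10 RBFOX2 and 23, 55 and 97 PTBP1 clusters (0.846, 0.393 to 1.62), and misc_RNA genes 14 and 42, 117 and 127 (0.904, 0.481 to 1.57). Against 10000 cells the ratio was 1.11 (0.819 to 1.49) for snoRNA, 1.40 (0.983 to 1.98) for tRNA and 1.77 (1.11 to 2.81) for snRNA genes, so that the first 2 intervals included 1. The class ncRNA held 21 RBFOX2 clusters and 20, 19 and 29 PTBP1 clusters. Its ratio was 5.94 (3.22 to 10.8) at 10000000 cells and 2.22 (1.14 to 4.31) at 10000. RPPH1, the RNA of ribonuclease P, held 11 clusters in each of the 4 lists. RMRP, of the related ribonuclease MRP, held 6 RBFOX2 and 6, 3 and 6 PTBP1 clusters. The counts of RPPH1 and RMRP were thus no larger in the longer lists, whereas those of tRNA and snoRNA genes were. Many small RNA genes have copies among which reads may be split.

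Long noncoding genes gave 32 of 137 at least 2-fold higher and 30 lower, and protein-coding genes 953 of 4573 higher and 1260 lower. Among 30 listed long noncoding RNAs 12 entered, with 8 higher and 0 lower (median 3.04, and 1.27 against 10000 cells, with 2 of 12 higher and 0 lower). Besides JPX, FTX, MALAT1 and NEAT1 these included TUG1 (17 and 43, 3.24), SNHG1 (10 and 29, 2.83) and ZFAS1 (34 and 112, 2.49), the last 2 being hosts of snoRNAs. PVT1, beside the MYC gene, was at 0.621 (38 and 502).

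A pair of further lists had too few clusters to compare. Of 45 replication-dependent histone genes 3 held an RBFOX2 cluster and 18 a PTBP1 cluster at 10000000 cells, with 4 and 89 clusters in all. Of 10 genes that mark other cell types, such as ALB, HBB and PTPRC, 1 held an RBFOX2 cluster and 2 a PTBP1 cluster (GFAP with 1 and 2, COL1A1 with 0 and 4), and the other 8 were at 0 in both. Of 10 transcripts known from 293 cells 4 entered, the kidney factor PAX2 with 8 RBFOX2 and 65 PTBP1 clusters (1.01) and LIN28B with 26 and 336 (0.635) among them.

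Gene length followed the difference. Protein-coding genes with the higher RBFOX2 share had a median length of 30.4 kb, those with the lower share 125 kb, and all those compared 68.7 kb. Among 161 genes under 10 kb, 121 were at least 2-fold higher and 2 lower (median ratio 3.08), and among 333 genes over 300 kb, 6 were higher and 213 lower (median 0.387). Against the 10000-cell list the same length classes had medians of 1.18 and 0.804, with 25 of 198 higher and 24 of 231 lower. The 142 protein-coding genes higher against each of the 3 PTBP1 lists had a median length of 28.5 kb, and the 526 lower against each had 114 kb. Of clusters in protein-coding genes, those over 300 kb held 8.10% in the RBFOX2 list and 9.41%, 16.3% and 14% in the PTBP1 lists in order of input.

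**Figure D4:**
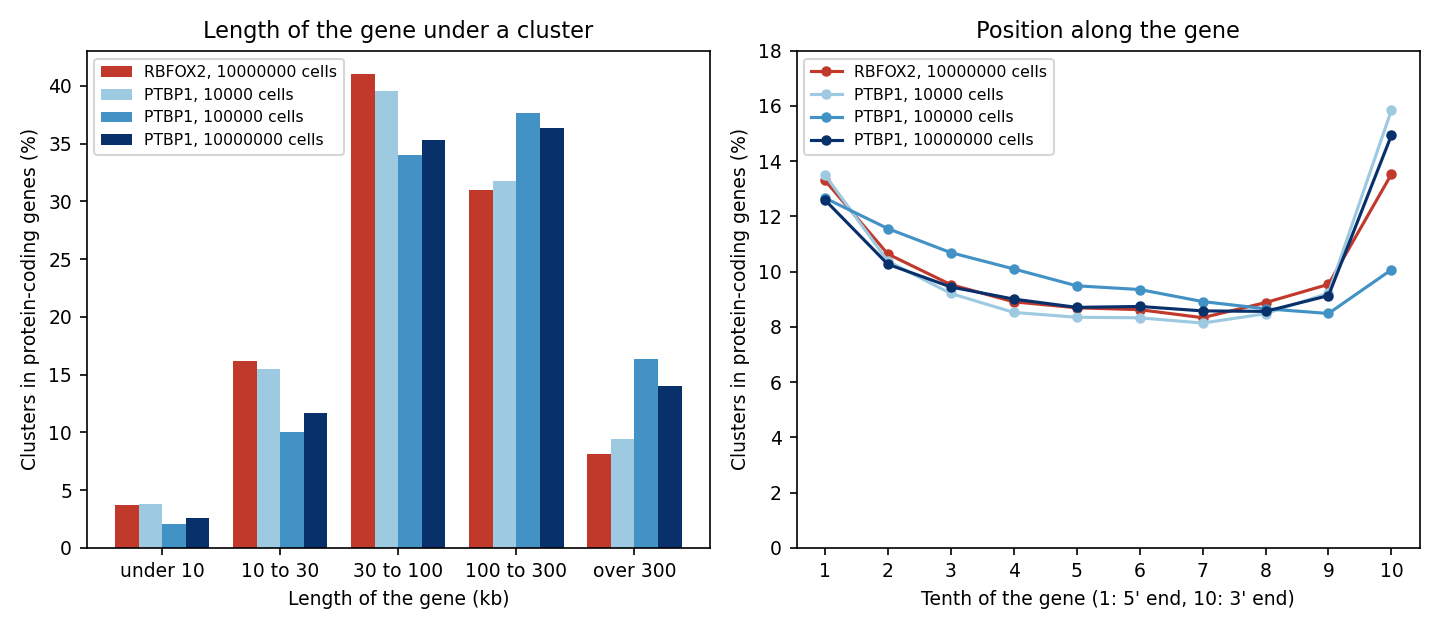
Left, percentage of clusters in protein-coding genes by length of the gene (kb); right, percentage of clusters in each of 10 equal parts of the gene, 5′ end first; bars and lines are the RBFOX2 list and the PTBP1 lists from 10000, 100000 and 10000000 cells. RBFOX2 lies near the 10000-cell list by length, and at the 3′ end it reaches 13.5%, against 15.9%, 10.1% and 14.9%.

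Along protein-coding genes the first 2000 nt held 5.47% of RBFOX2 clusters (5.33 to 5.6) and 4.29% of PTBP1 clusters at 10000000 cells (4.25 to 4.33), a ratio of 1.27. The last 2000 nt held 7.68% (7.52 to 7.84) and 7.75% (7.69 to 7.80), a ratio of 0.991. Because short genes carried more of the RBFOX2 clusters, both were also read with each gene weighing the same, over the 2921 genes with at least 10 clusters in both lists. The first 2000 nt then held 5.92% and 5.63%, and the last 2000 nt 8.83% and 10.2%, so that the RBFOX2 share at the 3′ end was 0.868 of that of PTBP1. Gene by gene, the RBFOX2 share of the first 2000 nt was higher in 651 genes, lower in 1289 and equal in 981, against the direction of the mean. For the last 2000 nt it was higher in 485, lower in 1671 and equal in 765. Against the 100000-cell list the RBFOX2 mean was higher at both ends (5.92% and 5.32%, 8.83% and 7.86%). Even so, more genes were lower there (1184 and 1197) than higher (694 and 693). A part with few clusters can hold none in the shorter RBFOX2 list, so these gene counts cannot decide a direction. Within genes of 30 to 100 kb the last 2000 nt held 6.16% of RBFOX2 clusters (5.94 to 6.38) and 8.04% of PTBP1 clusters (7.95 to 8.14). Over genes longer than 300 kb the shares were 0.662% and 1.17%. PTBP1 at 10000 and 100000 cells, with 9.37% and 4.49% in the last 2000 nt of all genes, lay on either side of RBFOX2.

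Within single genes the clusters of both proteins were spread in similar ways, with shifts in a few. In SLIT2 the first 20% of the gene held 234 of 469 RBFOX2 clusters (49.9%) and 276 of 710 PTBP1 clusters (38.9%), and in FTX it held 77.4% of RBFOX2 and 58.6% of PTBP1 clusters. CELF1 and HELLS carried most clusters of both proteins in the last 20%, with 62.8% and 61.6% for RBFOX2 and 57.7% and 53.8% for PTBP1. In AMOT the last 20% held 27.5% of RBFOX2 and 39.6% of PTBP1 clusters. In JPX the first 20% and the next 20% held 167 and 182 RBFOX2 clusters and 170 and 274 PTBP1 clusters, nearly all of both. NEO1, with 1 RBFOX2 cluster at 28.8% of its length, had between 45 and 147 PTBP1 clusters in each 20% of its length.

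Most RBFOX2 clusters of the genes with large differences overlapped a PTBP1 cluster from 10000000 cells. The share was 87.0% in ANKRD17, 86.9% in HELLS, 84.1% in CELF1 and 80.1% in ENAH, and it was lower in AMOT (66.8%) and SLIT2 (64.2%). In genes with the lower RBFOX2 share it was 50.0% in DIAPH2 (9 overlapping clusters), 74.6% in FHIT (47) and 87.2% in FOCAD (34). Among the RBFOX2 clusters in windows around gene starts, 351 of 441 overlapped one. The share over all RBFOX2 clusters was not computed, so whether these genes differ from it was not tested.

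Strand and chromosome also moved with the comparison. Of RBFOX2 clusters 60.2% (59.9 to 60.4) lay on the minus strand, against 61.2%, 55.4% and 54.0% of PTBP1 clusters in order of input. Genes on the minus strand had a median ratio of 1.06 and genes on the plus strand 0.816 against 10000000 cells, and 0.938 and 0.983 against 10000 cells. The X chromosome, which carries JPX, FTX and AMOT, held 5.42% of RBFOX2 clusters (5.29 to 5.55) and 4.81%, 4.12% and 4.0% of PTBP1 clusters. The part of strand and list length in the differences by gene was not tested.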

How the data were processed

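Each group has 1 deposited list of positions and strands on hg38, with no score, tied to its first library. Per the labels' protocols, cells were irradiated with UV-C and RNA was cut with RNase I, and Trim Galore 0.0.6 and STAR 2.7.9a appear in the submitters' processing notes. For the cluster caller, its thresholds, duplicate removal and pooling of libraries, details were not given in the sources used here. Comparison, gene lists and rules were all chosen with earlier results of these data known.

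Clusters went by their midpoint to 59679 RefSeq gene spans (GRCh38.p14), where strands matched or the gene's was unknown; ties went to small RNAs and known strands, then to protein-coding, long noncoding and other genes, then to the shortest. Strands came from RefSeq tables (29079 genes) or from at least 3 PTBP1 clusters with 90% on 1 strand (2396). Exons and introns were not used here. All 652 entries of the 26 gene lists matched a gene. Ratios of cluster counts, computed here from the deposited lists, have exact conditional binomial intervals, and bounds use a floor of 3 clusters. Genes were named by family, by the 10 largest differences and ratios each way (5 for noncoding genes), and, within lists, by mean share and fold. Python 3.11.15, numpy 2.4.6, pandas 2.3.3, scipy 1.17.1 and matplotlib 3.10.9 were used, and the assignment code was tested on simulated data.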

Additional observations from a re-analysis of the deposited data

Results flagged for a closer look

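Clusters were listed in NEAT1 and ZNF703 in data that the comparison of RBFOX2 with PTBP1 at 10000000 cells does not use. NEAT1 held 14 clusters in the RBFOX2 list and 0 in the PTBP1 lists from 100000 and 10000000 cells, yet 16 in the PTBP1 list made with 40 µg of SpyCatcher2.0, and between 9 and 16 in the 4 SpyCatcher lists. ZNF703 held 20 in the RBFOX2 list and 14 in the PTBP1 list from 1000 cells, against 0 at 10000 and 10000000 cells and 24 at 100000. It was the 1 gene with at least 20 clusters at 100000 cells and none at 10000000. In the 4 SpyCatcher lists ZNF703 held between 7 and 11 clusters. These lists and the 1000-cell list are far shorter than the RBFOX2 list of 117590 clusters. The RBFOX2 share of ZNF703 was lower than in each of them, and that of NEAT1 lower than in each SpyCatcher list. The lists carry no read counts, so a limit on the reads at the absent clusters cannot be given. The bounds given above for both genes rest on a floor of cluster counts alone.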

How the results depend on the processing

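Of 4752 genes, 999 were at least 2-fold higher and 1295 at least 2-fold lower. A mean share of at least 0.01% left 763 higher and 521 lower, and one of 0.0025% gave 1126 and 2343. At 1.5-fold 1518 were higher and 1718 lower, and at 3-fold 437 and 831. Against the PTBP1 list of 10000 cells the counts were 365 and 513, and against each of 3 lists 154 and 541. That last setting and RefSeq strands alone were chosen after seeing the data. Merging within 50 nt, counting covered bases, ignoring strand, overlap in place of midpoint, RefSeq strands and the 100000-cell list kept both counts within 1.5 times. Ratios of shares moved as follows. For small RNA genes it was 2.22 merged, 3.26 by covered bases and 1.34 against 10000 cells, and for pseudogenes and other genes 1.04, 1.28 and 1.09. Long noncoding genes gave 0.899 merged and 1.13 by covered bases, and protein-coding genes 1.01 merged. The first 2000 nt gave 1.21 by covered bases, 1.03 against 10000 cells, 1.53 against 100000 and 1.05 with genes weighing the same. The last 2000 nt gave 0.961, 0.820, 1.71 and 0.868. Of 132 medians of gene lists under another setting, 16 moved by over 1.5 times, and 13 of these 16 moved against the 10000-cell list. Against 10000000 cells 15 of 22 medians lay above that of all genes, and against 10000 cells 13 did. Between these, 5 lists lay above all genes at 10000000 cells and below them at 10000 (hnRNP, helicase and decay, cohesin, nuclear transport and translation), and 3 lay the other way (actin and adhesion, synaptic and 293-cell transcripts). The cause was not tested. No paired analysis was possible because each group has 1 list. Leaving out a replicate could not be run for the same reason.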
